A study of Mus musculus with 8 samples.

Results

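The 37 genes of the mouse mitochondrial chromosome were followed in the brain of conditional Akap11 knockout mice and of control mice. Members were taken as every gene whose symbol starts with mt-, after the Ensembl identifiers of the count files were matched to symbols. They were 13 mRNAs, 2 rRNAs and 22 tRNAs among 57186 genes listed. The same 37 genes make up the whole chromosome in the GENCODE M21 annotation.

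The 2 groups were AKAP11 conditional knockout mice (cKO, 4 libraries) and control mice (4 libraries), with total RNA from brain in both. The sources used here name no strain, age, brain region, recombinase driver or deleted exon, and do not say that each library is a separate mouse. P-values therefore measure the spread between these libraries, which may be technical. Akap11 encodes an anchoring protein for protein kinase A (PKA), and the libraries compare brain RNA with and without its conditional deletion.

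Mitochondria keep a small circular genome of their own, which is copied and transcribed apart from the nuclear chromosomes. Both strands are transcribed into long precursors that span many genes, and tRNAs that lie between the other genes mark the sites where the precursors are cut. The mRNAs encode core subunits of the respiratory chain and of ATP synthase, which neurons rely on for most of their ATP. The rRNAs and tRNAs serve the mitochondrion's own ribosome, whereas its ribosomal proteins, its RNA polymerase and its RNA processing enzymes are encoded in the nucleus.

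A few sequences show how the layout of this genome bears on the counts, because neighbouring genes abut or overlap and because part of the genome has near-identical copies on nuclear chromosome 1. All were read from GENCODE M21 transcripts (GRCm38), whereas the counts were made on GRCm39. The first is the tRNA for proline at chrM:15356-15422 on the minus strand, the tRNA with nearly all tRNA reads, with its anticodon in capitals. The next pair are the 3′ ends of mt-Atp8 (chrM:7890-7969) and mt-Nd4l (chrM:10124-10173), both on the plus strand, with the bases they share with mt-Atp6 and mt-Nd4 in capitals.
mt-Tp: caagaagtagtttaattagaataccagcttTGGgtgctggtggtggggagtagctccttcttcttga
mt-Atp8: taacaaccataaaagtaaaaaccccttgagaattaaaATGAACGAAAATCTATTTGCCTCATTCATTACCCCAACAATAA
mt-Nd4l: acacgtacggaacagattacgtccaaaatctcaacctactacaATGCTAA

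The other sequences set mitochondrial genes beside their copies on chromosome 1. The first 60 bases of mt-Co2 (chrM:7013-7072) are the same in the pseudogene Gm28661. Within mt-Co1 and mt-Nd3, the stretches that match the pseudogenes Gm29216 and Gm28438 each differ from them at 1 base, shown in capitals. These are A1066T between mt-Co1 and Gm29216, and T3C between mt-Nd3 and Gm28438, with the mitochondrial base first and positions counted from 1 at the gene's 5′ end.
mt-Co2: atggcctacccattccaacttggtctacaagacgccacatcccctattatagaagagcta
mt-Co1: ggaAttgttttatccaactcatcccttga
Gm29216: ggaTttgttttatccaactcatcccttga
mt-Nd3: atTaacctgtacactgttatcttcatta
Gm28438: atCaacctgtacactgttatcttcatta

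Reads in genes numbered 13841218 to 19991942 in cKO libraries and 15752877 to 19818313 in control libraries. Replicate 1 of the cKO group stood apart in its read classes, with 63.8% of all listed reads in genes, against 73.9% to 79.7% in the other cKO libraries and 73.7% to 74.9% in control libraries. Its ambiguous reads, which overlap more than 1 gene, were 10.1%, against 5.14% to 6.16% in all other libraries. The comparisons of the mitochondrially encoded genes, their copies and the nuclear lists are therefore given with and without it. This choice was also made with earlier results of these data known, in which the library stood apart. Akap11 itself was at 220.5, 214, 237 and 240.5 CPM (reads per 1000000 reads in genes, TMM-normalised) in cKO replicates 1 to 4, against 373, 312, 315 and 291 CPM in control replicates 1 to 4, so that the groups did not overlap (log2 fold change -0.50, edgeR adjusted p 0.0103). Of the marker lists, 5 of 5 neuronal genes summed to 5659 to 6049 CPM in cKO and 5693 to 6329 CPM in control libraries, and no marker of any list was at 0 in all libraries. Astrocyte genes (4 of 4) summed to 3487 to 4011 CPM in cKO and 3966 to 4622 CPM in control libraries, with cKO replicate 1 the lowest. Choroid plexus genes (5 of 5), from a tissue rich in mitochondria, summed to 391 to 637 CPM in cKO and 460 to 648 CPM in control libraries. Their part in the mitochondrial values was not tested.

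Mitochondrially encoded genes took a near-constant share of the reads in 7 libraries and a smaller one in cKO replicate 1. They held 2.77%, 3.43%, 3.42% and 3.48% of reads in genes in cKO replicates 1 to 4, against 3.15%, 3.33%, 3.27% and 3.39% in control replicates 1 to 4. The means were 3.28% ± 0.338 (SD, n = 4) in cKO and 3.28% ± 0.102 (SD, n = 4) in control libraries. Without replicate 1, the cKO mean was 3.44% ± 0.0304 (SD, n = 3), and all of its libraries lay above the control libraries. In bulk tissue, a different number of cells of a mitochondria-rich type and a different amount of mitochondrial RNA per cell cannot be told apart. The part of library quality in the lower share of cKO replicate 1 was not tested.

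**Figure D1:**
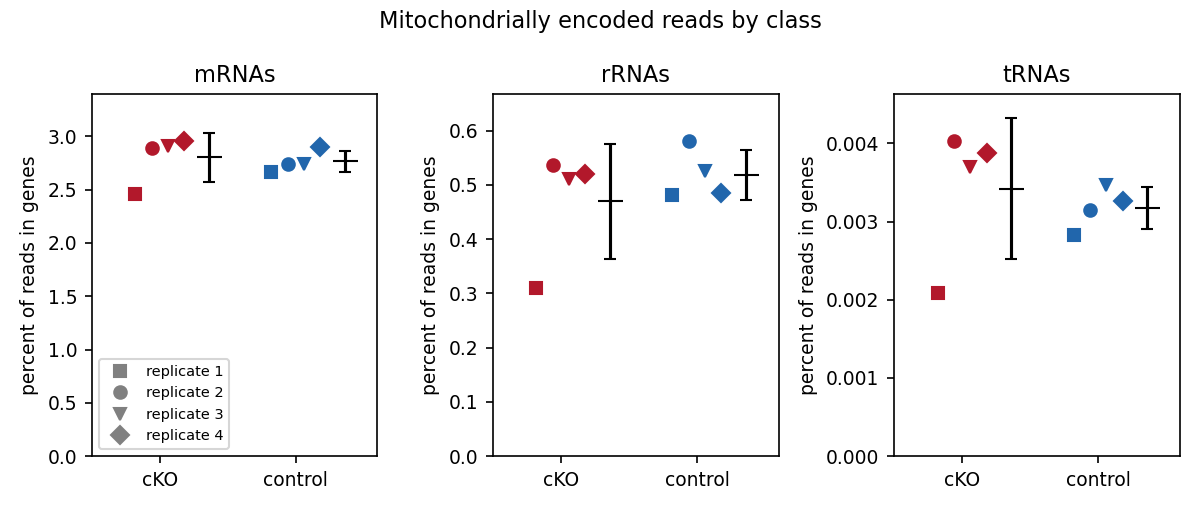
Share of reads in genes held by mitochondrial mRNAs, rRNAs and tRNAs (y axes, percent, each with its own scale) in each cKO and control library, with the replicate number as symbol and mean ± SD (n = 4) beside each group. Replicate 1 of the cKO group is lowest in all panels, at 2.46%, 0.311% and 0.00208%.

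The messenger RNAs made up most of this share. They held 2.46%, 2.89%, 2.91% and 2.95% of reads in genes in cKO replicates 1 to 4, against 2.67%, 2.74%, 2.74% and 2.90% in control replicates 1 to 4. Both rRNAs together held 0.311%, 0.536%, 0.510% and 0.521% in cKO, against 0.482%, 0.581%, 0.527% and 0.485% in control libraries. The tRNAs held 0.00208%, 0.00403%, 0.00370% and 0.00387% in cKO, against 0.00283%, 0.00314%, 0.00347% and 0.00326% in control libraries. All classes were lowest in cKO replicate 1, and in each class the groups overlapped when it was kept. Without it, the tRNA shares of the cKO libraries lay above those of the control libraries, and the mRNA and rRNA shares still overlapped.

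In that library the summed rRNA reads were lower by a larger factor than the summed mRNA reads were, although single mRNAs were lower still. The ratio of rRNA reads to mRNA reads was 0.127, 0.185, 0.176 and 0.176 in cKO replicates 1 to 4, against 0.181, 0.212, 0.192 and 0.167 in control replicates 1 to 4. Without replicate 1, the cKO mean was 0.179 ± 0.00544 (SD, n = 3), within the control spread of 0.188 ± 0.0188 (SD, n = 4). These rRNA values describe what is left in libraries prepared from total RNA by a provider, and no selection step is named in the sources used here.

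mt-Rnr1, the RNA of the small mitochondrial ribosomal subunit, was at 1160 CPM in cKO replicate 1 and at 2288, 2123 and 2212 CPM in cKO replicates 2 to 4, against 2095, 2531, 2232 and 2085 CPM in control replicates 1 to 4. Only cKO replicate 1 left the control range. Its log2 fold change, cKO over control, was -0.20 (SE 0.22, edgeR adjusted p 0.913). Without that library it was -0.02, with a 95% interval of -0.15 to 0.10.

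mt-Rnr2, the RNA of the large subunit, showed the same order of libraries. It stood at 1953, 3122, 2920.3 and 2969 CPM in cKO replicates 1 to 4, against 2833, 3295, 3025 and 2741 CPM in control replicates 1 to 4. The log2 fold change was -0.12 (SE 0.14, edgeR adjusted p 0.913), and 0.01 without cKO replicate 1. That library held 1.68 reads of mt-Rnr2 per read of mt-Rnr1, against 1.34 to 1.38 in the other cKO libraries and 1.30 to 1.36 in control libraries.

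Complex I, which takes electrons from NADH, has 7 of its subunits encoded here, and their mRNAs held 1.25% ± 0.132 of reads in genes in cKO and 1.25% ± 0.0488 in control libraries (SD, n = 4 each). Without replicate 1, the cKO mean was 1.31% ± 0.0156 (SD, n = 3). mt-Nd1, a subunit of the membrane arm close to the ubiquinone site, was at 3037, 3946, 3992 and 3983 CPM in cKO replicates 1 to 4, against 3579, 3828, 3768 and 4014 CPM in control replicates 1 to 4. Apart from replicate 1, the cKO libraries lay within the control range. mt-Nd2, another membrane arm subunit, was at 2448, 2889, 2788 and 2885 CPM in cKO, against 2632, 2708, 2653 and 2779 CPM in control libraries. Here cKO replicates 2 to 4 all lay above the control libraries, by a narrow margin.

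mt-Nd4 and mt-Nd5, which encode proton-pumping subunits, were also lowest in cKO replicate 1, but without the separation seen for mt-Nd2. mt-Nd4 was at 2364, 2743, 2702 and 2815 CPM in cKO replicates 1 to 4, against 2649, 2651, 2611 and 2759 CPM in control replicates 1 to 4. mt-Nd5 was at 2406, 3062, 2992 and 3097 CPM in cKO, against 2971, 2959, 2841 and 3042 CPM in control libraries. In both, the groups overlapped with and without cKO replicate 1.

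mt-Nd6 is the only mRNA gene among the 9 members on the minus strand; the other 8 are tRNAs. It was at 259, 465, 422 and 426 CPM in cKO replicates 1 to 4, against 384, 408, 387 and 435 CPM in control replicates 1 to 4. The reads of mt-Nd6 per read of its neighbour mt-Nd5 on the opposite strand were 0.108 in cKO replicate 1, 0.138 to 0.152 in the other cKO libraries and 0.129 to 0.143 in control libraries. The sources used here do not state the strand setting of the counting, so reads from the opposite strand cannot be told apart from reads of mt-Nd6 itself.

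mt-Nd3 and mt-Nd4l, which encode small membrane subunits, are the shortest mRNAs that could be tested, at 348 and 297 bases. mt-Nd3 was at 7.38 CPM in cKO replicate 1 and at 18.6, 18.8 and 22.7 CPM in cKO replicates 2 to 4, against 20.2, 21.9, 23.4 and 21.2 CPM in control replicates 1 to 4. mt-Nd4l was at 0.724 CPM in cKO replicate 1 and at 2.72, 2.51 and 2.77 CPM in cKO replicates 2 to 4, against 1.96, 2.23, 2.66 and 2.41 CPM in control replicates 1 to 4. In cKO replicate 1, mt-Nd4l had 10 reads (exact Poisson 95% interval 4.80 to 18.4, counting error only), against 50 to 54 in the other cKO libraries and 32 to 50 in control libraries.

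mt-Cytb encodes cytochrome b, the 1 subunit of complex III encoded here. It was at 4132, 4766, 4768 and 4944 CPM in cKO replicates 1 to 4, against 4596, 4626, 4547 and 4817 CPM in control replicates 1 to 4. The group means, 4653 ± 357 CPM in cKO and 4646 ± 118 CPM in control libraries (SD, n = 4 each), differed by less than the spread between replicates. Without replicate 1, the cKO mean was 4826 ± 102 CPM (SD, n = 3), and the groups still overlapped.

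mt-Co1 encodes the catalytic subunit of complex IV, cytochrome c oxidase, and was the most highly counted of the 37 genes. It stood at 9813, 11136, 10872 and 11029 CPM in cKO replicates 1 to 4, against 10299, 10171, 10381 and 10839.7 CPM in control replicates 1 to 4. Replicates 2 to 4 of the cKO group again all lay above the control libraries. The gene took 37.6% to 39.9% of mitochondrial mRNA reads in cKO and 36.9% to 37.9% in control libraries. The highest share was that of cKO replicate 1, and the other cKO libraries held 37.6% to 38.2%.

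The other subunit genes of complex IV had far fewer reads. mt-Co2, which holds the copper centre that receives electrons from cytochrome c, was at 59.0, 76.4, 82.1 and 77.0 CPM in cKO replicates 1 to 4, against 69.5, 74.3, 69.6 and 81.8 CPM in control replicates 1 to 4. mt-Co3 was at 45.9, 42.1, 49.7 and 46.6 CPM in cKO, against 41.9, 50.1, 44.6 and 46.7 CPM in control libraries. Of the tested members, mt-Co3 was the one in which cKO replicate 1 came closest to the other cKO libraries, at 99.6% of their mean.

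ATP synthase, complex V, has 2 subunits encoded here. mt-Atp6, part of its proton channel, was at 29.8, 29.8, 35.4 and 31.3 CPM in cKO replicates 1 to 4, against 27.9, 29.3, 29.4 and 30.4 CPM in control replicates 1 to 4. mt-Atp8 had 1 read in each of cKO replicates 2 and 3 and control replicates 3 and 4, and 0 in the others, and was not tested. Its gene of 204 bases shares 43 of them with mt-Atp6, as printed above, and lies 1 base from a tRNA on its other side.

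Levels per length separated the tested mRNAs into 2 sets. mt-Atp8, with 4 reads over all libraries, was not tested and stands outside them. It averaged 0.123 CPM per kilobase in cKO and 0.127 CPM in control libraries. No copy of at least 100 bases of it was found among annotated transcripts, and unannotated copies were not searched. The 43 bases it shares with mt-Atp6 do lie within the stretch that matches the chromosome 1 copy of mt-Atp6. The gene lies between mt-Co2 and mt-Atp6, which both have a copy, so whether the rest of mt-Atp8 has one too is not known here. Per kilobase, the 5 tested mRNAs with no copy on chromosome 1 (mt-Nd1, mt-Nd2, mt-Nd5, mt-Nd6 and mt-Cytb) averaged 757 to 4067 CPM in cKO and 778 to 4062 CPM in control libraries. The 5 mRNAs whose length a chromosome 1 copy covers by over 95% (mt-Co2, mt-Atp6, mt-Co3, mt-Nd3 and mt-Nd4l) averaged 7.35 to 108 CPM per kilobase in cKO and 7.79 to 108 CPM in control libraries. mt-Co1 and mt-Nd4, covered in part, averaged 6934 and 1928 CPM per kilobase in cKO, against 6746 and 1936 CPM in control libraries. mt-Co1 was thus 64.4-fold above mt-Co2 per kilobase in cKO and 62.5-fold above it in control libraries, although both are cut from the same precursor.

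**Figure D2:**
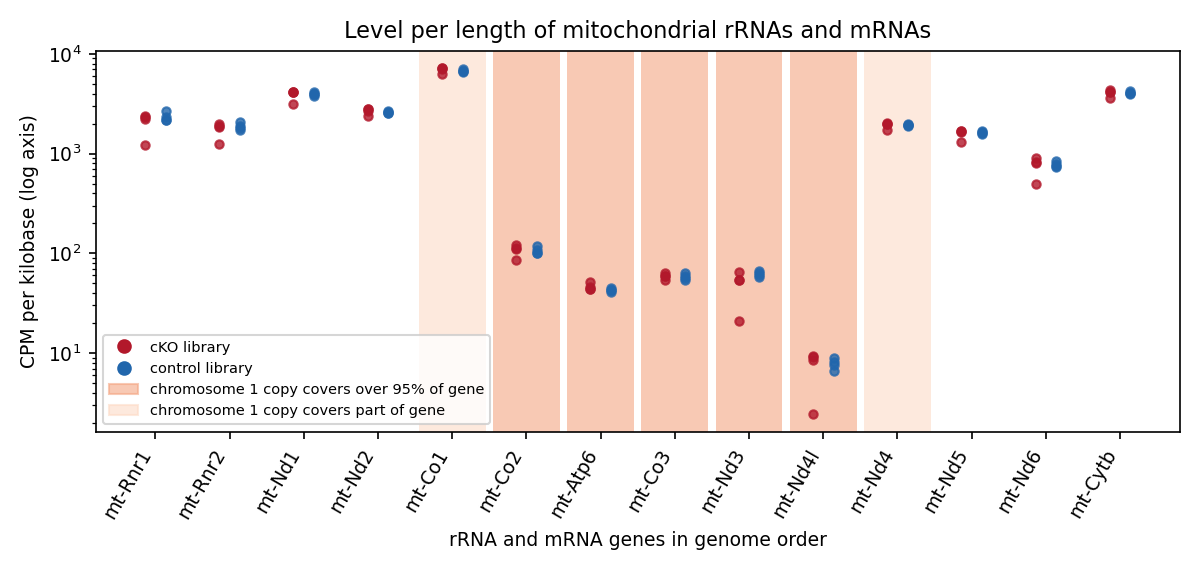
Level per length (CPM per kilobase, log axis) of the 2 rRNAs and 12 tested mRNAs in genome order, with 1 point per cKO or control library. The 5 genes under the darker shade, covered over 95% by a chromosome 1 copy, lie between 7.35 and 108 CPM per kilobase on average in cKO libraries, below all other genes shown.

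The copies are annotated pseudogenes on chromosome 1, found by comparing the mitochondrial transcripts with all nuclear transcripts of GENCODE M21. There were 7, Gm29216, Gm28661, Gm10925, Gm28437, Gm28438, Gm10222 and Gm28439, which match mt-Co1, mt-Co2, mt-Atp6, mt-Co3, mt-Nd3, mt-Nd4l and mt-Nd4. Identity was 100% in 5 of them, 99.8% over 483 bases of mt-Co1 and 99.7% over 345 bases of mt-Nd3. A read that lies within an identical stretch fits both places equally well, whereas one over a differing base or past the end of the stretch does not. The count files list reads with several alignments apart from the genes. They made up 4.10% to 4.39% of all listed reads in cKO and 4.28% to 4.31% in control libraries. The levels of mt-Co2, mt-Atp6, mt-Co3, mt-Nd3 and mt-Nd4l, covered almost whole, are therefore uncertain. So are those of mt-Co1 and mt-Nd4 over their covered parts, 31.3% and 63.6% of their lengths. A comparison of levels between mRNAs that involves any of these genes is not one of abundance.

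Reads were also counted on the copies themselves, and in 4 of the 7 the highest library was 3.25-fold to 3.92-fold above the lowest. Gm28661, the copy of mt-Co2, was at 55.1, 136, 147 and 114 CPM in cKO replicates 1 to 4, against 122, 179, 56.6 and 68.7 CPM in control replicates 1 to 4. Over the same libraries mt-Co2 spanned 59.0 to 82.1 CPM. Gm28437, the copy of mt-Co3, was at 157 CPM in cKO replicate 2 and 50.1 to 53.4 CPM in the other cKO libraries, against 48.0 to 78.2 CPM in control libraries. mt-Co3 itself was lowest among cKO libraries in replicate 2, at 42.1 CPM, against 45.9 to 49.7 CPM in the other cKO libraries. That value lay within the control range of 41.9 to 50.1 CPM. Gm29216, the copy of part of mt-Co1, was at 46.3 to 77.9 CPM in cKO libraries, against 133, 59.9, 34.0 and 37.6 CPM in control replicates 1 to 4.

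None of the 7 copies passed the edgeR test (adjusted p 0.889 to 0.999). Their log2 fold changes ran from -0.15 for Gm29216 to 0.43 for Gm28437, with SEs of 0.50 and 0.46. Without cKO replicate 1 none passed either, and several values moved. Gm29216 stood at -0.30 and Gm28437 at 0.57 there. Gm28661 stood at 0.32, against 0.10 with all libraries, and Gm28438 at 0.20, against -0.0012. Gm28439 stood at 0.09, against 0.02, and Gm10222 and Gm10925 at 0.33 and 0.26, against 0.23 and 0.24. With both places added, mt-Co2 and Gm28661 reached 273 CPM per kilobase in cKO and 263 CPM in control libraries, still far below mt-Co1.

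**Figure D3:**
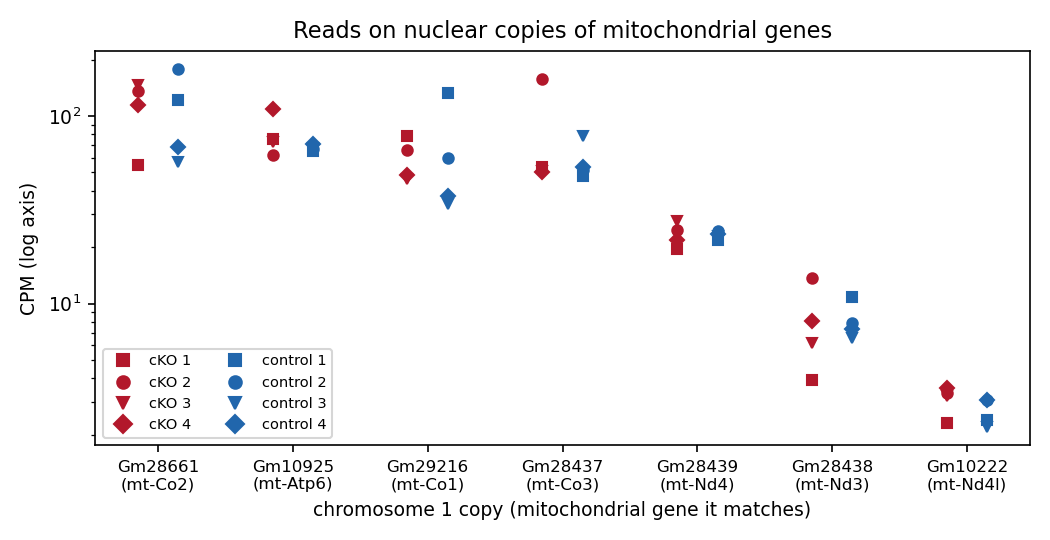
CPM (log axis) of the 7 chromosome 1 copies in each cKO and control library, ordered by control mean, with the matching mitochondrial gene in parentheses. Single libraries stand apart, such as cKO replicate 2 at 157 CPM for Gm28437 and control replicate 1 at 133 CPM for Gm29216.

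The tRNAs were almost absent from the counts. Of 22, 20 had 0 reads in all 8 libraries, which allows up to 0.217 CPM in the shallowest library (3 reads, counting error only). mt-Tc, the tRNA for cysteine, had 1 read in each of cKO replicates 2 and 3. The tRNA genes are 59 to 75 bases long, and 14 of them lie within 2 bases of a neighbouring gene on both sides. A fragment longer than the tRNA can then overlap a second gene. Some of these neighbours lie on the opposite strand, and whether such a fragment counts as ambiguous there depends on the unstated strand setting. The part of this layout, of fragment size and of RNA purification in the zeros was not tested, and the counts are not read here as tRNA levels.

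mt-Tp, the tRNA for proline printed above, was the exception. It is the last gene of the annotation, on the minus strand, with no annotated gene between it and the end of the chromosome. On its other side it directly abuts mt-Tt, which lies on the plus strand. Reads from the opposite strand cannot be told apart from its own here either. It held 288, 804, 726 and 708 reads in cKO replicates 1 to 4, against 472, 495, 651 and 646 reads in control replicates 1 to 4. As CPM these were 20.8, 40.6, 36.5 and 38.5 in cKO, against 28.9, 31.5, 34.7 and 32.4 in control libraries. Replicate 1 was the lowest of all libraries, and the other 3 cKO libraries all lay above the control libraries.

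Relative to the mean of the other cKO libraries, cKO replicate 1 was not lower by 1 common factor. It stood at 27.1% for mt-Nd4l, 36.8% for mt-Nd3, 52.5% for mt-Rnr1, 54.1% for mt-Tp, 59.1% for mt-Nd6 and 65.0% for mt-Rnr2. For mt-Co2, mt-Nd1 and mt-Nd5 it stood at 75.1% to 78.9%, and for mt-Cytb, mt-Nd2, mt-Nd4, mt-Co1 and mt-Atp6 at 85.6% to 92.7%. The 2 lowest, mt-Nd4l and mt-Nd3, are the shortest mRNAs tested and have 41.1% and 33.0% GC. The next lowest, mt-Rnr1, has 955 bases and 35.8% GC. All but a few bases of mt-Nd4l and mt-Nd3 are covered by a chromosome 1 copy, and so are those of mt-Atp6 and mt-Co3, which at 681 and 784 bases were the closest to the other cKO libraries. The parts of gene length, GC content, chromosome 1 copies and library quality in this pattern were not tested. The library also had high shares of ambiguous, low-quality (7.18%) and unaligned reads (10.4%).

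**Figure D4:**
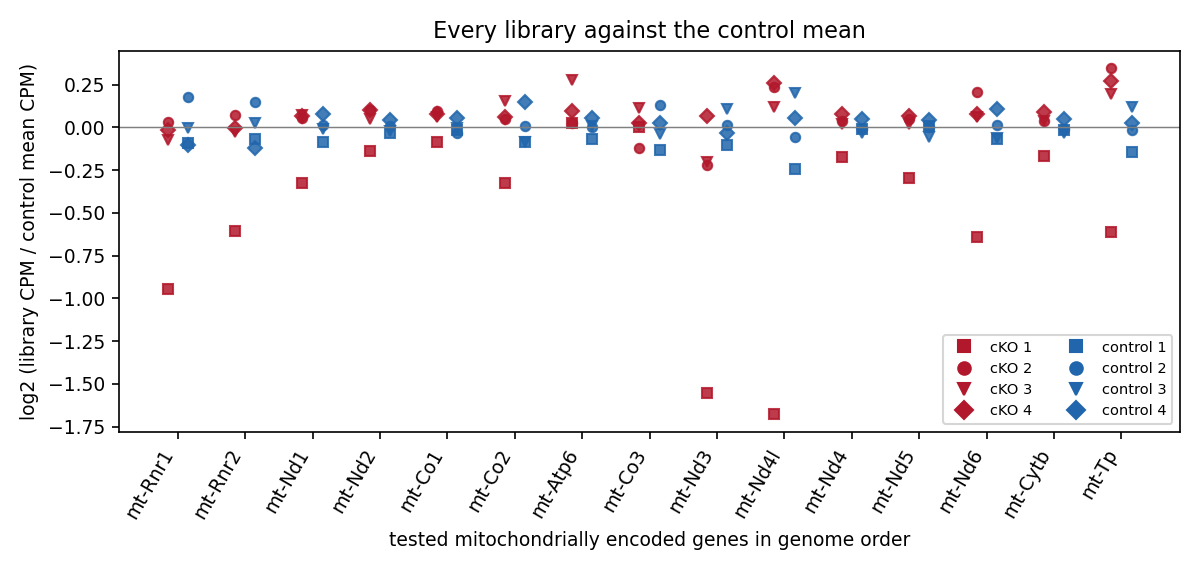
Level of each of the 15 tested members in each library, as log2 of its CPM over the control mean (y axis), in genome order. The square of cKO replicate 1 lies below zero for all members but mt-Atp6 and mt-Co3, and lowest for mt-Nd4l and mt-Nd3.

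Between the groups, none of the 15 tested members (12 mRNAs, both rRNAs and mt-Tp) passed the test. The other 22 had too few reads to pass the low-count filter. By edgeR 0 of 15 passed an adjusted p of 0.05, where 0.0239% of all genes tested were called, and 0 had an unadjusted p under 0.05, where 4.78% of all genes did. DESeq2 and limma voom also called 0. Adjusted edgeR p-values ran from 0.889 to 0.999. For 0 of 15 did all cKO libraries lie above all control libraries, where they did for 1.57% of all genes tested, and for 0 of 15 did all lie below, where 1.39% did; in either direction the share was 2.96%.

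With all libraries the largest fold changes were those of mt-Nd3 and mt-Rnr1, which were smaller in size without cKO replicate 1. For most members, such as mt-Tp and mt-Nd6, the fold change was larger in size without it. The median log2 fold change of the 12 mRNAs was -0.0034, against 0.0034 over all genes tested, with 5 positive and 7 negative. It ranged from -0.34 for mt-Nd3 (SE 0.29) to 0.11 for mt-Atp6 (SE 0.079), with edgeR adjusted p of 0.899 and 0.889. The rRNAs had a median of -0.16 and mt-Tp stood at 0.11 (SE 0.18). For 12 of the 15 members the 95% interval lay within a 1.5-fold change in either direction. The exceptions were mt-Rnr1 (-0.74 to 0.34), mt-Nd3 (-1.02 to 0.34) and mt-Nd4l (-0.64 to 0.53).

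Without cKO replicate 1, the values lay slightly higher in cKO and again none passed. That library had the lowest share in every class, so leaving it out raises the cKO shares by construction. The median of the mRNAs was 0.07, against -0.0014 over all genes tested, with 11 of 12 positive and only mt-Nd3 negative, at -0.12. By edgeR 0 of 15 had an adjusted p under 0.05 (lowest 0.989), where 0.0176% of all genes were called. An unadjusted p under 0.05 was reached by 2 of 15, where 3.88% of all genes reached it. These were mt-Tp at 0.27 (95% interval 0.11 to 0.42, unadjusted edgeR p 0.00204) and mt-Nd6 at 0.11 (0.0016 to 0.22, unadjusted edgeR p 0.0471). They are the only tested members on the minus strand. Since the strand setting of the counting is not stated, reads from the opposite strand cannot be told apart from reads of either gene.

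In the same 7 libraries, the cKO libraries all lay above the control libraries for 3 of 15 members, mt-Nd2, mt-Co1 and mt-Tp, where 2.56% of all genes tested did. They lay below for 0 of 15, where 2.78% did. The members come from shared precursors and are not independent of each other. The log2 fold changes of mt-Nd2 and mt-Co1 in these libraries were 0.08 (95% interval -0.01 to 0.17) and 0.08 (95% interval -0.01 to 0.16).

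**Figure D5:**
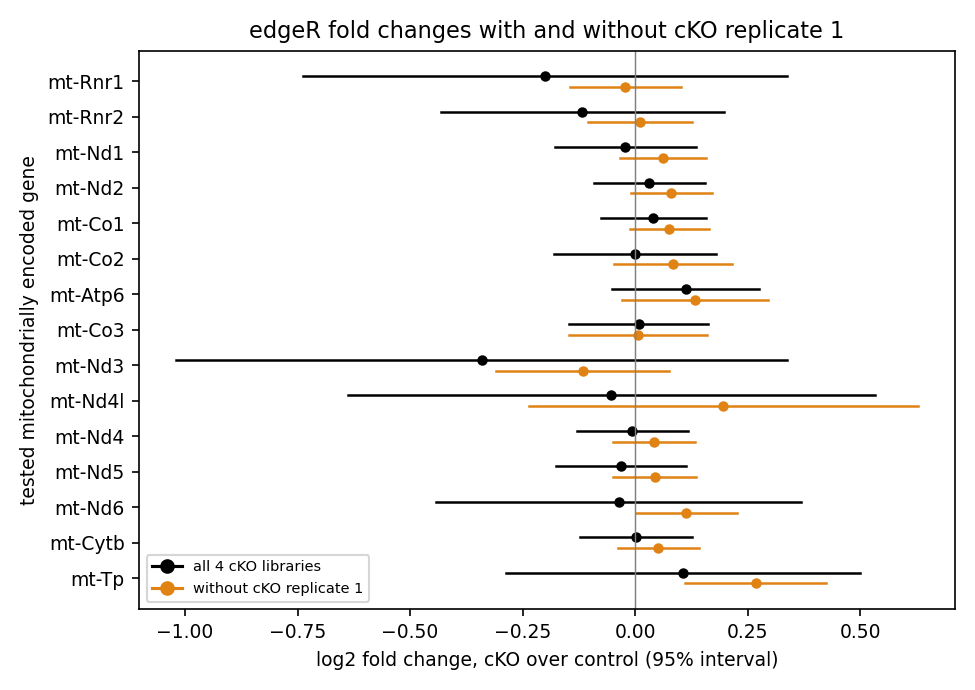
Log2 fold change, cKO over control, with its 95% interval for the 15 tested members, in black with all 4 cKO libraries and in orange without cKO replicate 1. All black intervals include 0; leaving out the library narrows those of mt-Rnr1, mt-Nd3, mt-Nd6 and mt-Tp, and the orange intervals of mt-Nd6 and mt-Tp lie above 0.

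Nuclear genes that serve the mitochondrial genome gave no calls either, in 4 lists. Among 15 genes for transcription and maintenance of mitochondrial DNA, 0 passed over all genes by edgeR, DESeq2 or limma voom, and 2 of 15 had an unadjusted edgeR p under 0.05, both higher in cKO, where 4.78% of all genes tested had one. The list's median log2 fold change was 0.01, or 0.03 without cKO replicate 1. None of the 4 lists had a call without that library. Polrmt, the RNA polymerase that transcribes all 37 genes, was at 35.5, 34.6, 33.9 and 33.8 CPM in cKO replicates 1 to 4, against 27.8, 30.1, 29.4 and 29.9 CPM in control replicates 1 to 4. All cKO libraries lay above the control libraries, as they did in 1.57% of all genes tested, but its log2 fold change of 0.23 (SE 0.071) missed the threshold (edgeR adjusted p 0.889). It was 0.21 without cKO replicate 1. Mterf4, which takes part in assembly of the mitochondrial ribosome, stood at 0.33 (SE 0.12), and Top1mt, the mitochondrial topoisomerase, at 0.18 (SE 0.10), both with overlapping groups. Without cKO replicate 1 these were 0.35 and 0.22.

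Among 31 tested genes for mitochondrial RNA processing and stability, 0 passed by any of these tools, with a median of 0.01, or 0.02 without cKO replicate 1. At an unadjusted edgeR p under 0.05 there was 1 gene of 31 in each direction, near the 4.78% of all genes tested. Fastk, whose mitochondrial form is known to stabilise the mt-Nd6 mRNA, was at 74.4 ± 9.23 CPM in cKO and 64.2 ± 4.27 CPM in control libraries (SD, n = 4 each). Its log2 fold change was 0.21 (SE 0.079), or 0.12 without cKO replicate 1. Fastkd5, which takes part in cutting precursors at sites without a tRNA, was at 2.21 to 3.11 CPM in cKO and 2.76 to 4.08 CPM in control libraries, with a log2 fold change of -0.47 (SE 0.19), and Trmu, which modifies mitochondrial tRNAs, stood at 0.20 (SE 0.11). Without cKO replicate 1 these were -0.56 and 0.23.

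Nuclear subunits of complexes III, IV and V, which are built together with the products of the 13 mRNAs, had a median of 0.03 over 37 tested genes, or 0.02 without cKO replicate 1. None passed by edgeR, DESeq2 or limma voom, and 1 of 37 had an unadjusted edgeR p under 0.05, towards higher, where 4.78% of all genes tested had one. Atp5d, a subunit of the rotor of ATP synthase, was at 157 ± 16.2 CPM in cKO and 141 ± 4.68 CPM in control libraries (SD, n = 4 each), and its log2 fold change of 0.15 was 0.08 without cKO replicate 1. Ndufa4, a subunit of complex IV, was at 109 CPM in cKO replicate 1 and 138 to 153 CPM in the other cKO libraries, against 146 to 152 CPM in control libraries. Its log2 fold change was -0.13 (SE 0.079), or -0.04 without that library. Cox8a, also of complex IV, stood at 0.10 (SE 0.061), or 0.08 without it.

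Among 78 genes for mitochondrial ribosomal proteins, 0 passed by these tools, with a median of 0.03 with and without cKO replicate 1. By edgeR 3 of 78 had an unadjusted p under 0.05, 2 higher and 1 lower, a share below the 4.78% of all genes tested. They were Mrpl30 at 0.15 (SE 0.070), Mrps11 at 0.24 (SE 0.11) and Mrpl11 at -0.16 (SE 0.074), and without cKO replicate 1 they stood at 0.15, 0.23 and -0.15. Mrpl30 was at 34.7 to 36.5 CPM in cKO and 30.3 to 32.5 CPM in control libraries. All its cKO libraries thus lay above the control libraries, as they did in 1.57% of all genes tested.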

How the data were processed

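The authors deposited 1 table of whole-number read counts per Ensembl gene for each of 8 libraries, unnormalised. HISAT2 and the GRCm39 build are named in the submitters' processing notes; the sources used here state no versions, counting program, strand setting or annotation. Group and replicate number were read from the sample titles. Of 57186 genes, 51880 matched a symbol. The 5 entries that name no gene (no feature, ambiguous, low quality, not aligned, not unique) stayed out of library sizes and tests, which left 63.8% to 79.7% of listed reads.

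From the counts, filterByExpr kept 16766 genes and TMM scaled the libraries. Groups were compared by the quasi-likelihood test of edgeR 4.0.16 (R 4.3.3), and p-values were adjusted after Benjamini and Hochberg across every tested gene, at a threshold of 0.05. CPM are TMM-normalised; shares are percent of reads in genes. Fold changes are log2, cKO over control, with SE and 95% interval from the test statistic. The edgeR procedure was tested on simulated data. Sums over members have no test. Alternatives used DESeq2 1.42.0, limma 3.58.1, other filters and scalings, GC-content offsets (loess, span 0.5), a replicate block and leaving out libraries.

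Named were all mRNAs and rRNAs, the tRNAs with reads, and the 3 genes with the lowest p-value of each nuclear list. Members, lists and the library to leave out were chosen with earlier results of these data known. Nuclear copies were aligned stretches of at least 100 bases and 90% identity among GENCODE M21 transcripts (blastn). Unannotated copies, and copies of the tRNA genes, which are shorter than this, could not be found this way.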

Additional observations from a re-analysis of the deposited data

Results flagged for a closer look

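In groups of 4, a library was singled out when its gap to the nearest other library, divided by the group's range, passed Dixon's 95% critical value. Of 62 such groups 11 held one. Chance gives about 1 in 20 in independent groups, which these are not, since they are genes, sums and ratios measured in the same 8 libraries, and 10 of the 11 concern cKO replicate 1. In 9 of them cKO replicate 1 was lowest. It held 1160 CPM of mt-Rnr1 (2123 to 2288 in the other cKO libraries), 3037 CPM of mt-Nd1 (3946 to 3992), 0.724 CPM of mt-Nd4l (2.51 to 2.77) and 2406 CPM of mt-Nd5 (2992 to 3097). Its shares of reads in genes were 2.77% for all mitochondrially encoded genes, 2.46% for mRNAs, 0.311% for rRNAs and 0.00208% for tRNAs, and it had 0.127 rRNA reads per mRNA read. In the same library the reads of mt-Rnr2 per read of mt-Rnr1 were highest, at 1.68 (1.34 to 1.38 in the other cKO libraries). Of the chromosome 1 copies, Gm28437 stood apart in cKO replicate 2, at 157 CPM (50.1 to 53.4 in the other cKO libraries).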

How the results depend on the processing

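The count of mitochondrially encoded genes called was 0 in all 18 alternatives to the edgeR fit, with adjusted p of 0.725 or more for each of the 15 genes; one of these, leaving out control replicate 1 and cKO replicate 1 together, was chosen after seeing the data. Over all genes 4 were called, against 7 with no low-count filter, 2 with the replicate block, 2 with both replicates 1 left out, and 0 to 3 with 1 library left out (0 without cKO replicate 2 and 0 without control replicate 2). Of 270 single-gene log2 fold changes 231 kept their sign and 39, in 9 genes, did not. With GC-content offsets mt-Nd1 turned to 0.022, mt-Co2 to 0.039, mt-Nd4 to 0.048 and mt-Nd5 to 0.015. With library totals mt-Co2 turned to 0.0087 and mt-Nd4 to 0.0034. With both replicates 1 left out, mt-Nd1 stood at 0.039, mt-Co2 at 0.062, mt-Co3 at -0.029, mt-Nd4l at 0.13, mt-Nd4 at 0.044, mt-Nd5 at 0.051 and mt-Nd6 at 0.096. mt-Cytb turned to -0.0011 with DESeq2 size factors, -0.0016 with no filter, -0.00028 with the filter of 10 reads in 4 libraries, -0.0014 by DESeq2 and -0.0011 with the replicate block. With 1 library left out, values ran from -0.19 to 0.011 for mt-Rnr2, -0.059 to 0.062 for mt-Nd1, -0.061 to 0.085 for mt-Co2, -0.035 to 0.051 for mt-Co3, -0.18 to 0.20 for mt-Nd4l, -0.039 to 0.042 for mt-Nd4, -0.070 to 0.043 for mt-Nd5, -0.13 to 0.11 for mt-Nd6 and -0.032 to 0.051 for mt-Cytb. The cause was not tested. Over all alternatives the median of the mRNAs ran from -0.044 to 0.069 and that of the rRNAs from -0.24 to -0.0055. No clear pairing of the libraries by replicate number was seen. Deviations of same-numbered libraries correlated at 0.0052 to 0.0487 over genes, and 3 of 8 libraries correlated best with their own number. These values cannot exclude a weak pairing.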

Other observations

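Copies of mitochondrial genes elsewhere in the nuclear annotation, at lower identity than those on chromosome 1, drew few reads. Gm13340 on chromosome 2 matches all 1545 bases of mt-Co1 at 97.6% identity and held 15 to 50 reads in cKO and 23 to 52 reads in control libraries. Its neighbours in the list, Gm13341 (95.9% identity to mt-Co2) and Gm13339 (96.7% identity to part of mt-Nd2), held 7 to 27 and 0 to 15 reads over the 8 libraries. Copies of mt-Cytb, mt-Nd5 and mt-Nd6 at 92.4% to 95.2% identity held at most 1 read in any library.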
